A study of Homo sapiens with 24 samples.

Results

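Δ133p53α2 is a clonal line of H1299 cells that stably expresses the Δ133p53α isoform of p53, and this comparison sets its transcripts, over all genes, against those of H1299 vector control cells. H1299 is an established non-small cell lung cancer cell line that makes no p53 of its own, so the control cells, which carry the vector only, are p53 null. The libraries were chosen by their labels, 4 of Δ133p53α2 and 4 of control, which makes 8 of the 24 libraries of the series. Of 60563 named genes, 18295 had enough counts to be tested. The other lines of the series were 2 further Δ133p53α clones (Δ133p53α1 and Δ133p53α8) and 2 clones of the Δ133p53β isoform (Δ133p53β5 and Δ133p53β10). Their levels are given below only for comparison. Their libraries were in the same fit, however, and so shared in the filter, the scaling and the estimate of spread. All lines were made by plasmid in the same parental cells. Δ133p53α2 is a single clone and control a single line. An effect of the isoform and a property of either line therefore cannot be told apart. The labels do not say that the 4 libraries of a line came from separate cultures. The p-values measure only the spread between libraries of a line, estimated over all lines in the fit.

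p53 is a transcription factor that binds DNA as a tetramer and switches on genes that stop the cell cycle, repair DNA or start cell death. The Δ133 isoforms are made from an internal promoter. They lack the transactivation domains and the first part of the DNA-binding domain, and the α form keeps the full C-terminus with its tetramerization domain. They are known for modifying what other p53 proteins do and for links with migration, inflammation and metastasis.

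Libraries of Δ133p53α2 held 21754700 to 21996884 counts on genes. In control, replicate 1 held 25381731 and the other replicates 21722129 to 21953986. Replicate 1 of both lines stood apart from replicates 2 to 4. Its deviation from the mean of all libraries fell with gene length across genes (Spearman's rho -0.242 in Δ133p53α2 and -0.126 in control), whereas that of replicates 2 to 4 rose with it (0.203 to 0.236 and 0.180 to 0.205). Transcripts for cytosolic ribosomal proteins, which are short, summed to 149466 CPM in replicate 1 and 55599, 55208 and 60837 CPM in replicates 2 to 4 in Δ133p53α2, and to 80388 CPM in replicate 1 and 47548, 52787 and 49362 CPM in replicates 2 to 4 in control (CPM, the counts relative to the library size after scaling between libraries). Control replicate 3 differed in another way: transcripts of the cell cycle list summed to 3574 CPM there and to between 7116 and 7821 CPM in the other control libraries. Each gene is therefore given in replicate 1 first and then in replicates 2 to 4. As for the labelled cell type, the keratins KRT8 and KRT18 were high in both lines. CDH1 (E-cadherin), SFTPC (a surfactant protein) and the immune marker PTPRC had 0 counts in all 8 libraries, and EPCAM had at most 5. The defining epithelial adhesion markers were thus at or near 0 in both lines.

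A transcript was called where the adjusted p was under 0.05 and the log2 fold change was at least 1.5 in either direction. In Δ133p53α2, 179 transcripts increased (0.978% of those tested) and 335 decreased (1.83%) relative to control. Of the increased genes, 128 code for proteins and 34 give long non-coding RNAs, and of the decreased genes these were 267 and 53. The median log2 fold change was 2.37 among the increased and -2.47 among the decreased transcripts, whereas over all tested genes it was 0.01. Libraries of the lines did not overlap for 474 of the 514 called genes (165 increased and 309 decreased), as was so for 9.19% of all tested genes. Many of the decreases ended at or near zero: 30 of the decreased transcripts had no count in any library of Δ133p53α2, and 38 had 1 to 3 in all. Among the increased transcripts, 8 had no count in control. With bulk RNA, fewer cells that carry a transcript and less of it per cell cannot be told apart.

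**Figure D1:**
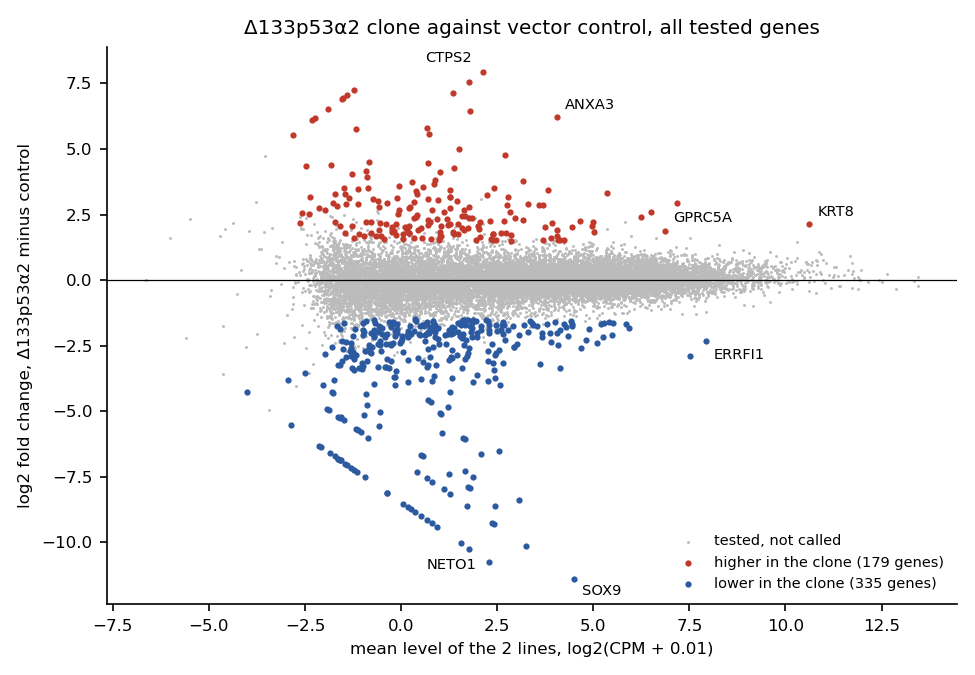
Each point is a tested gene, with the mean level of both lines on the x axis (log2 of CPM + 0.01) and the log2 fold change of Δ133p53α2 minus control on the y axis. The 179 increased and 335 decreased transcripts are coloured, and the diagonal edges at lower left and upper left are genes with no count in 1 of the lines.

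Replicate 1 of each line was left out to see which calls rested on it. With replicates 2 to 4 alone, 142 transcripts increased (0.781% of 18179) and 282 decreased (1.55%). Of the main calls, 127 increases and 251 decreases were called again, 122 were not called and 14 were no longer tested. In replicate 1 by itself, where 1 library of each line gives no test, all 514 called genes had the same sign as in the fit of all libraries, which is largely set by the choice of these genes, since that fit held replicate 1. With the direction of the length trend as a term in the fit, 223 transcripts increased and 452 decreased.

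**Figure D2:**
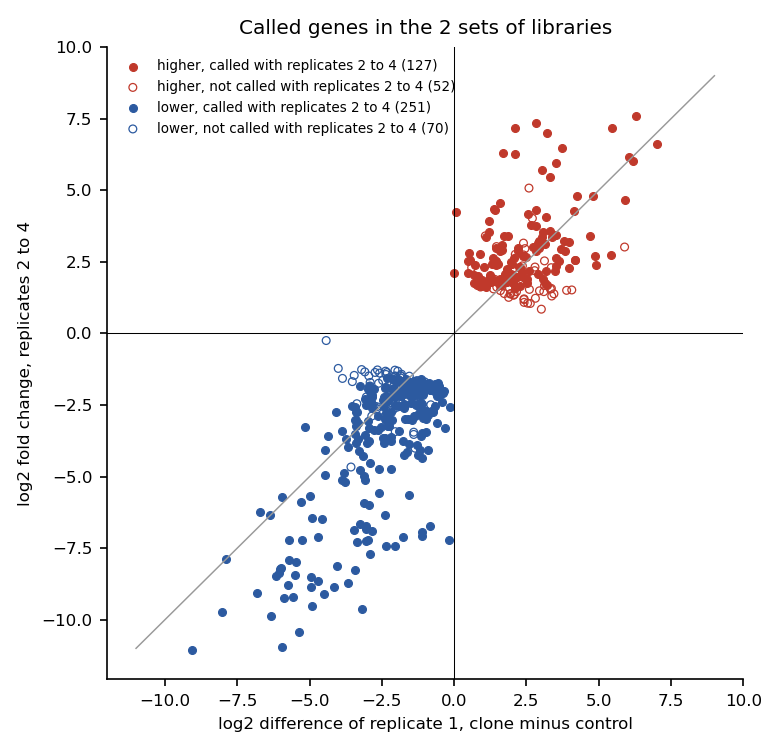
Called genes are plotted by their log2 difference in replicate 1 of each line (x axis, 1 library against 1, log2 of CPM + 0.1) and by the log2 fold change fitted in replicates 2 to 4 (y axis). Filled points are called again with replicates 2 to 4 (127 increased and 251 decreased), and open points are not. The genes were chosen by a fit that held all these libraries, so matching signs are largely set by that choice.

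The 12 largest increases among transcripts at 2 CPM or more whose libraries did not overlap between the lines included enzymes, calcium regulators and signalling genes that were close to silent in control. CTPS2, the gene of a CTP synthase that makes CTP from UTP, was at 7.74 CPM in replicate 1 and 6.68, 9.87 and 10.8 CPM in replicates 2 to 4 in Δ133p53α2. Control replicates 1 and 2 had none, and replicates 3 and 4 had 0.0766 and 0.0432 CPM, or 3 counts in all. The ratio of the lines was 289.7 (95% interval 98.8 to 1408). CRACR2A, a calcium sensor of store-operated calcium entry, was at 6.07 and then 5.72, 5.62 and 2.89 CPM in Δ133p53α2 and had 3 counts in control, a ratio of 163 (95% interval 55.5 to 794). Replicate 4 was the lowest library of Δ133p53α2 for it, and still lay above every control library. The long non-coding RNA LINC02780 varied more, at 13.0 and then 4.54, 6.98 and 2.35 CPM in Δ133p53α2 against 3 counts in control. ANXA3 (annexin A3, which binds phospholipids in the presence of calcium) was the most abundant of the 12, at 29.7 and then 28.3, 44.2 and 28.2 CPM in Δ133p53α2 and 0.349 and then 0.522, 0.422 and 0.432 CPM in control (log2 fold change 6.23, SE 0.30, adjusted p = 3.51e-11). NR0B1, an orphan nuclear receptor that represses other nuclear receptors, was at 10.1 and then 5.94, 5.37 and 5.74 CPM and 0.0388 and then 0.0870, 0.115 and 0.0432 CPM (log2 fold change 6.46, SE 0.40, adjusted p = 1.23e-09).

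The other large increases were in genes of varied function. GDNF, a ligand that supports the survival of neurons, was at 2.34 and then 5.15, 2.77 and 2.1 CPM in Δ133p53α2 and 0.0388 and then 0.261, 0.115 and 0.130 CPM in control (log2 fold change 4.47, SE 0.54, adjusted p = 1.59e-05). The synaptic adhesion gene LRRC4C was at 3.73 and then 7.82, 7.35 and 2.97 CPM and 0.0388 and then 0.392, 0.0766 and 0.173 CPM (log2 fold change 5.00, SE 0.67, adjusted p = 5.05e-05). TRPM2, a calcium-permeable channel opened by ADP-ribose, was at 5.96 and then 3.28, 1.94 and 1.61 CPM and 0 and then 0.0870, 0.0383 and 0.130 CPM (log2 fold change 5.56, SE 0.71, adjusted p = 3.16e-05), with replicate 1 the highest library of Δ133p53α2. For 3 further genes the order was the other way, and replicate 1 was the lowest library of Δ133p53α2. NHS, a regulator of actin remodelling, was at 0.724 and then 4.63, 3.30 and 3.80 CPM in Δ133p53α2 (log2 fold change 5.79, SE 0.91, adjusted p = 3.02e-04). PAK3, a p21-activated kinase, was at 1.17 and then 4.45, 6.11 and 3.38 CPM (log2 fold change 4.11, SE 0.93, adjusted p = 0.00938), and the pseudogene CEP164P1 at 0.779 and then 6.59, 6.81 and 5.36 CPM (log2 fold change 4.29, SE 0.77, adjusted p = 0.00120). Control libraries stayed at or below 0.383 CPM for these 3 genes. The remaining gene, the zinc-finger gene ZNF22, is described with its neighbours below.

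The 12 largest decreases, chosen in the same way, were transcripts that were present in every control library and gave hardly a count in Δ133p53α2. SOX9, a transcription factor of cartilage and progenitor cells, was at 53.9 CPM in replicate 1 and 29.5, 72.5 and 24.4 CPM in replicates 2 to 4 in control. In Δ133p53α2 it had 1 count in 4 libraries, a ratio of 4125 (95% interval 739.9 to 162957). IL13RA2, a decoy receptor for interleukin 13, was at 26.0 and then 11.5, 22.6 and 15.2 CPM in control and also had 1 count in Δ133p53α2 (ratio 1711 (95% interval 307 to 67602)). So had ALCAM, an adhesion molecule of the immunoglobulin family, at 11.1 and then 7.66, 11.7 and 11.8 CPM in control (ratio 949.6 (95% interval 170.1 to 37544)), and SFMBT2, a Polycomb-group gene, at 5.74 and then 14.5, 10.7 and 10.5 CPM (ratio 913 (95% interval 164 to 36104)).

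The other 8 of the 12 had no count in Δ133p53α2, so only a lower bound of the fold can be given, taken against 3 counts over the 4 libraries. NETO1, an auxiliary subunit of kainate receptors, was at 6.05 and then 10.5, 10.7 and 11.6 CPM in control and at least 287-fold lower in Δ133p53α2. RTL6, a gene derived from a retrotransposon, was at 3.99 and then 6.96, 8.12 and 8.13 CPM in control and at least 201-fold lower. NDRG1, a stress-responsive gene, was at 7.95 and then 4.48, 8.01 and 2.98 CPM and at least 178-fold lower. Bounds for the rest were 113-fold for the microRNA host transcript MIR4527HG, 101-fold for ZC3HAV1L, 96.6-fold for the growth factor pleiotrophin (PTN), 85.1-fold for the ADP-ribosylarginine hydrolase ADPRH and 76.9-fold for the kinase RIPK4. All 12 were called (adjusted p between 7.78e-09 and 0.00157), and all were called again with replicates 2 to 4.

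**Figure D3:**
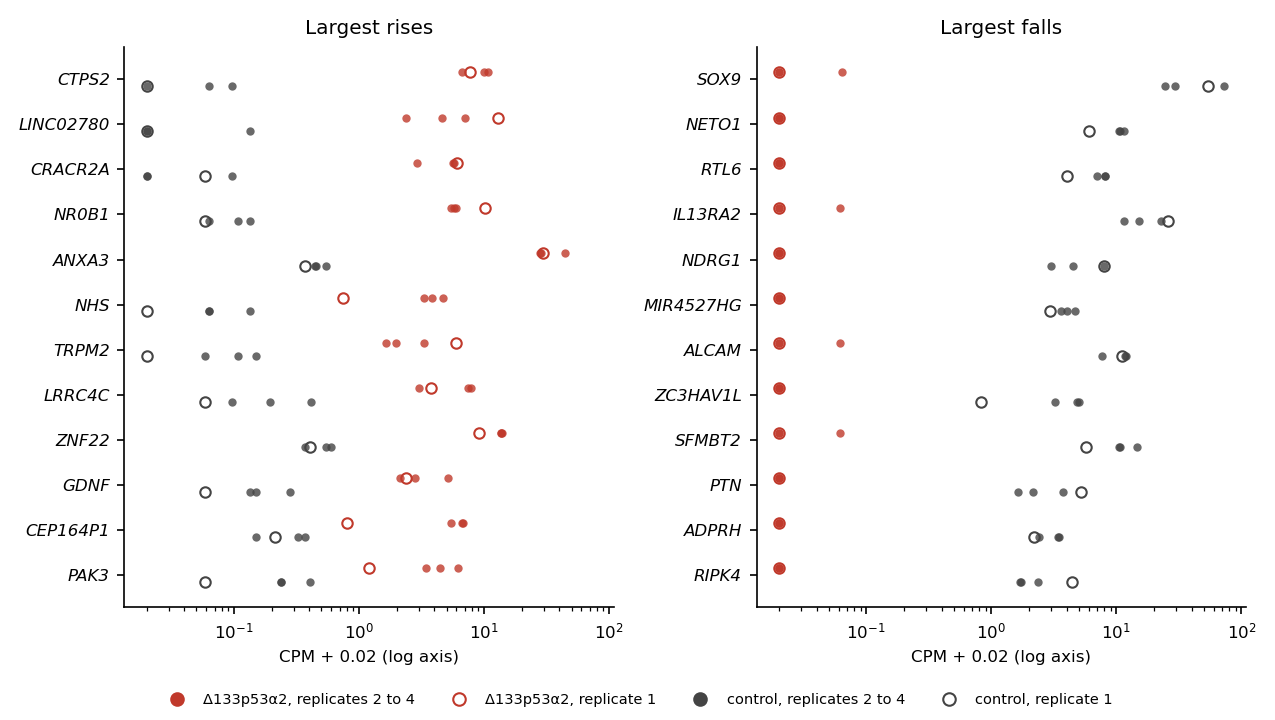
Levels by library of the 12 transcripts with the largest increase (left) and the 12 with the largest decrease (right), as CPM + 0.02 on a log axis, with Δ133p53α2 in red and control in grey. Open circles are replicate 1. Only genes whose libraries did not overlap between the lines were eligible.

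These changes were set beside the other clones, whose comparisons share the same control libraries. SOX9 averaged 0.0243 CPM in Δ133p53α1, 0.0453 CPM in Δ133p53β5 and 0.0640 CPM in Δ133p53β10, and had no count in Δ133p53α8. NETO1 averaged at most 0.0312 CPM in the other clones, against 9.71 CPM in control. NDRG1 had no count in Δ133p53α1, Δ133p53α8 or Δ133p53β5 and averaged 0.0312 CPM in Δ133p53β10. CTPS2 averaged 6.03, 7.11, 5.99 and 6.14 CPM in Δ133p53α1, Δ133p53α8, Δ133p53β5 and Δ133p53β10. For these 4 genes the other clones thus lay near Δ133p53α2 and far from control. Every clone was set against the same control line. A change shared by the clones and a property of that line thus cannot be told apart. ALCAM and IL13RA2 were less uniform: ALCAM averaged 0.613 CPM in Δ133p53β5, and IL13RA2 averaged 4.82 CPM in Δ133p53α8.

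By absolute level, the transcripts that gained most included KRT8, GPRC5A, MGLL and UPP1. KRT8, a keratin of simple epithelia, was at 4252 CPM in replicate 1 and 2226, 1713 and 1989 CPM in replicates 2 to 4 in Δ133p53α2 and 735 CPM in replicate 1 and 579, 431 and 564 CPM in replicates 2 to 4 in control (log2 fold change 2.14, SE 0.35, adjusted p = 4.22e-04). KRT8 has many near-identical pseudogenes, and how multi-mapping reads were counted is not stated, so its count is uncertain to that extent. MGLL, the lipase that breaks down monoacylglycerols, was at 183 and then 184, 155 and 105 CPM in Δ133p53α2 and 11.7 and then 38.6, 19.7 and 33.1 CPM in control (log2 fold change 2.6, SE 0.38, adjusted p = 1.14e-04). GPRC5A, an orphan receptor induced by retinoic acid, was at 277 and then 152, 191 and 116 CPM and 35.7 and then 56.6, 50.3 and 56.5 CPM (log2 fold change 1.88, SE 0.30, adjusted p = 3.04e-04). Its log2 fold change of 1.49 with replicates 2 to 4 fell just short of the threshold. UPP1, a uridine phosphorylase, was uneven in Δ133p53α2, at 289 and then 26.1, 165 and 29.7 CPM, against 19.4 and then 13.6, 49.3 and 14.8 CPM in control. Its call (adjusted p = 0.0272) was lost with replicates 2 to 4. Both high libraries of Δ133p53α2, replicates 1 and 3, and the high control library, replicate 3, were also the libraries with the highest summed level of the integrated stress response list, given below, and the part of that list in the result was not tested.

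Those that lost most were ERRFI1, VGF, ADM, STC1 and CLIP3. ERRFI1, a feedback inhibitor of ErbB receptors, was at 42.4 CPM in replicate 1 and 82.1, 114 and 86.0 CPM in replicates 2 to 4 in Δ133p53α2 and 303 CPM in replicate 1 and 329, 651 and 331 CPM in replicates 2 to 4 in control (log2 fold change -2.31, SE 0.39, adjusted p = 7.22e-04). VGF, a precursor of secreted neuropeptides, was at 105 and then 18.2, 39.8 and 11.7 CPM and 253 and then 153, 714 and 167 CPM (log2 fold change -2.88, SE 0.69, adjusted p = 0.0147). CLIP3, a microtubule-linked protein of endosomes, was at 17.7 and then 9.74, 17.5 and 22.3 CPM and 63.7 and then 37.6, 160.2 and 29.4 CPM (log2 fold change -2.11, SE 0.46, adjusted p = 0.00713). The hormone gene STC1 was at 17.0 and then 26.2, 33.1 and 33.3 CPM and 48.7 and then 49.2, 223 and 32.9 CPM, and ADM, the gene of the vasodilator adrenomedullin, at 17.5 and then 49.9, 15.3 and 24.5 CPM and 97.4 and then 119.8, 27.6 and 132 CPM. Control replicate 3 was the highest control library for ERRFI1, VGF, STC1 and CLIP3, and the lowest for ADM. Without it, ERRFI1 and ADM remained past the threshold, whereas VGF, STC1 and CLIP3 were not called. ADM was not called with replicates 2 to 4 (log2 fold change -1.64, adjusted p = 0.0714) or when only the 8 libraries were fitted (adjusted p = 0.124). Without control replicate 3, log2 fold changes were -2.09 (adjusted p = 0.0890) for VGF, -0.65 (adjusted p = 0.343) for STC1 and -1.36 (adjusted p = 0.0539) for CLIP3.

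The 250 bases upstream of 2 RefSeq start sites (GRCh38.p14, each on its gene's strand) are shown for the transcript with the largest fold increase and the one with the largest gain in CPM. Where a gene has several start sites, only the first listed was taken, here and in the shares below. Whether it is the start site used in these cells was not tested. In CTPS2 (chrX:16712670-16712919, minus strand) capitals mark CG dinucleotides, of which there were 17. In KRT8 (chr12:52926470-52926719, minus strand) they mark the single match to the p53 half-site consensus, which starts at base -136. This KRT8 window held 1 CG dinucleotide.
CTPS2: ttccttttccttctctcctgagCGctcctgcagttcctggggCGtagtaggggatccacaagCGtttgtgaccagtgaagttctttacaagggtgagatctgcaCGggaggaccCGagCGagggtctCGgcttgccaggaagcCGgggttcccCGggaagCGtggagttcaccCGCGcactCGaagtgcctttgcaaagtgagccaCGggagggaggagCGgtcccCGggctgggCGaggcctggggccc
KRT8: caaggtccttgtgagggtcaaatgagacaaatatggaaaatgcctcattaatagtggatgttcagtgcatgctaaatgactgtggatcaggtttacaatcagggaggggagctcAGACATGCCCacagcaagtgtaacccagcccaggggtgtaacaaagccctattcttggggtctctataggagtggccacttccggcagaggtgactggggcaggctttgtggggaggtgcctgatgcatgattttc
A match to the p53 half-site consensus (both strands, no mismatch) was found in the same window of 11 of 122 increased genes with a RefSeq promoter (9.02%), of 11 of 208 decreased genes (5.29%) and of 536 of all 11632 tested genes with one (4.61%). The sequence TATAAA, on either strand, was found in 6 (4.92%), 16 (7.69%) and 632 (5.43%) of them. The median number of CG dinucleotides was 18 among increased, 17.5 among decreased and 21 among all genes. These are descriptions of letters, and no binding was measured.

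Gene lists were then read by their members. Of all tested genes, 0.978% increased and 1.83% decreased, and the calls of each list are to be read against these shares. For scale, 22.2% of the tested TNF superfamily list and 2.0% of the DNA repair list were called in either direction. No such share was taken for counts at an unadjusted p under 0.05, which are given as they stand. None of 28 tested p53 target genes was called by edgeR, DESeq2 or limma voom (4 had an unadjusted p under 0.05, of which 1 had an adjusted p under 0.05 at a lower fold), and the median of the list was 0.16. CDKN1A, the cell cycle inhibitor p21, was at 79.1 and then 64.0, 36.5 and 45.4 CPM in Δ133p53α2 and 43.5 and then 30.6, 38.4 and 24.9 CPM in control (log2 fold change 0.71, SE 0.28, adjusted p = 0.170). MDM2, which marks p53 for degradation, was at 38.0 and then 54.8, 46.6 and 53.5 CPM and 52.5 and then 33.4, 32.3 and 36.4 CPM (log2 fold change 0.32, SE 0.22, adjusted p = 0.545). Libraries of the lines overlapped for both genes. TP73, a p53 relative, was at 4.84 and then 4.41, 3.34 and 5.65 CPM and 8.57 and then 5.44, 4.33 and 4.15 CPM (log2 fold change -0.30, SE 0.36, adjusted p = 0.777).

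In the lists of receptor tyrosine kinases and of growth factor and Wnt signalling, calls in the fit of all libraries were decreases apart from GDNF and 2 Wnt pathway ligands. Of 28 receptor tyrosine kinases, ERBB3 and ROR2 decreased. ROR2, a Wnt5a receptor, was at 0.724 and then 0.742, 0.537 and 1.07 CPM in Δ133p53α2 and 4.26 and then 6.88, 5.75 and 6.40 CPM in control (log2 fold change -2.91, SE 0.45, adjusted p = 2.74e-04). ERBB3 was at 3.17 and then 2.23, 3.30 and 2.81 CPM and 5.54 and then 8.57, 18.7 and 5.19 CPM (log2 fold change -1.72, SE 0.36, adjusted p = 0.00485), and without control replicate 3 its log2 fold change of -1.14 was under the threshold. The MAPK feedback list had no call among 23 members by edgeR, DESeq2 or limma voom (8 at an unadjusted p under 0.05, median -0.18). In the PI3K list, 2 of 22 decreased. PIK3CG, a PI3K catalytic subunit of leukocytes, was at 7.09 and then 14.3, 9.62 and 12.3 CPM in control and had 2 counts in Δ133p53α2 (ratio 477 (95% interval 132 to 3945)), and PREX1, a Rac activator, was at 1.39 and then 1.40, 1.65 and 1.94 CPM in Δ133p53α2 and 5.5 and then 10.1, 10.5 and 8.78 CPM in control (log2 fold change -2.44, SE 0.45, adjusted p = 0.00151).

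In the GDNF and neurotrophic list (10 tested), the ligand GDNF increased while its co-receptor GFRA1 and the ligand PTN decreased. GFRA1 was at 1.67 and then 2.39, 2.68 and 2.68 CPM in control and had no count in Δ133p53α2 (at least 69.9-fold lower). The TGF-β and BMP list had 4 decreases among 33 tested members. The ligand BMP7 was at 1.55 and then 1.83, 1.11 and 1.69 CPM in control and had no count in Δ133p53α2 (at least 45.6-fold lower), the inhibitor SMAD6 was at 0.779 and then 0.568, 0.578 and 1.24 CPM and 2.02 and then 2.87, 2.49 and 2.25 CPM (-1.60, adjusted p = 0.0254), and the BMP target ID4 at 0 and then 0.0873, 0.0826 and 0.0825 CPM and 0.388 and then 1.17, 0.0383 and 1.34 CPM (-3.36, adjusted p = 0.0157). For ID4 the lines overlapped in control replicate 3, and its call was lost without control replicate 2 or without control replicate 4. The matrix protein LTBP2, which was at 11.4 and then 14.9, 17.9 and 26.0 CPM and 43.5 and then 36.6, 110.1 and 32.5 CPM (-1.67, adjusted p = 0.00726), and SMAD6 were not called without control replicate 3. Of 35 Wnt pathway members, the ligand WNT7B (1.45 and then 1.31, 0.867 and 4.54 CPM in Δ133p53α2 and 0.194 and then 0.348, 0.422 and 0.216 CPM in control) and the R-spondin RSPO4 (2.39 and then 1.31, 1.69 and 1.73 CPM and 0.0775 and then 0.0870, 0.345 and 0.0432 CPM, log2 fold change 3.60, adjusted p = 4.89e-05) increased. WNT7B rested on its high replicate 4, and its adjusted p was 0.0398. With replicates 2 to 4 alone, 1 member of the Wnt list increased and 1 decreased. In the Notch list, 1 of 20 was called: the receptor NOTCH3 was at 0.724 and then 1.40, 1.11 and 1.77 CPM in Δ133p53α2 and 8.18 and then 5.48, 26.7 and 5.14 CPM in control (log2 fold change -3.17, SE 0.48, adjusted p = 2.03e-04).

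Genes of neurons were called in both directions. Of 28 tested members of the synaptic and neuronal channel list, 2 increased and 6 decreased (median -0.48). The presynaptic scaffold gene ERC2 was at 4.51 and then 4.63, 4.58 and 3.55 CPM in Δ133p53α2 and 0.426 and then 0.609, 0.383 and 0.476 CPM in control (log2 fold change 3.18, SE 0.24, adjusted p = 2.25e-08), and LRRC4C, given above, increased with it. The pore subunits of a pair of calcium channels were among the decreases, without overlap between the lines. CACNA1A, the pore of P/Q-type calcium channels, had 2 counts in Δ133p53α2 and was at 2.25 and then 2.61, 3.95 and 2.42 CPM in control (ratio 126 (95% interval 34.6 to 1047)). CACNA1B, the pore of N-type channels, was at 0.779 and then 0.655, 1.45 and 0.454 CPM and 2.33 and then 5.09, 12 and 3.85 CPM (log2 fold change -2.80, SE 0.46, adjusted p = 4.59e-04). The postsynaptic adhesion gene NLGN3 was at 0.278 and then 0.393, 0.248 and 0.289 CPM and 1.82 and then 1.74, 4.14 and 1.82 CPM (log2 fold change -2.96, SE 0.39, adjusted p = 4.36e-05), and GRIN2B, an NMDA receptor subunit, at 1.89 and then 3.84, 2.93 and 1.61 CPM and 2.95 and then 17.2, 4.48 and 13.6 CPM (log2 fold change -1.89, SE 0.54, adjusted p = 0.0422). Control libraries of GRIN2B ranged widely, and replicate 1 overlapped with Δ133p53α2.

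Axon guidance genes, calcium channels and neuroendocrine markers gave fewer calls. Of 36 axon guidance genes, SEMA7A increased (4.45 and then 11.8, 4.71 and 10.1 CPM in Δ133p53α2 and 2.75 and then 3.35, 1.88 and 2.64 CPM in control), while SLIT3 (0.390 and then 0.742, 0.743 and 2.06 CPM and 5.27 and then 2.61, 4.71 and 2.51 CPM), NTN1 (0.0557 and then 0.131, 0.289 and 0.0825 CPM and 0.892 and then 0.740, 1.23 and 1.08 CPM) and EFNB3 (1.73 and then 0.917, 1.03 and 1.49 CPM and 4.15 and then 3.66, 12.2 and 3.29 CPM) decreased. Their log2 fold changes were 1.55, -1.92, -2.74 and -2.17, with adjusted p between 0.00466 and 0.0330. The calls of SEMA7A, NTN1 and EFNB3 were lost without control replicate 3. Of 27 genes of calcium entry and TRP channels, CRACR2A, TRPM2 and the channel gene CALHM5 increased. CALHM5 was at 1.78 and then 3.14, 2.19 and 3.92 CPM and 0.659 and then 0.827, 0.345 and 0.562 CPM (log2 fold change 2.20, SE 0.29, adjusted p = 4.41e-05). The synaptic vesicle marker SYP was at 2.62 and then 0.917, 1.03 and 0.949 CPM in Δ133p53α2 and 3.95 and then 3.74, 6.32 and 3.20 CPM in control (log2 fold change -1.65, SE 0.34, adjusted p = 0.00473), whereas CHGA and INSM1 had at most 3 counts in any library of either line.

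In the adhesion and matrix lists the calls in the fit of all libraries were decreases apart from COL4A6. Of 21 tested adhesion molecules, 4 decreased and none increased (median -0.30). With replicates 2 to 4 alone, 3 adhesion molecules decreased and 1 increased. ICAM1, a ligand of leukocyte integrins, was at 0.724 and then 0.437, 0.619 and 0.330 CPM in Δ133p53α2 and 4.19 and then 4.96, 6.86 and 5.66 CPM in control (log2 fold change -3.36, SE 0.25, adjusted p = 2.04e-08). PTPRS, a receptor phosphatase, had 1 count in Δ133p53α2 and was at 2.52 and then 1.74, 4.25 and 2.03 CPM in control (ratio 239.7 (95% interval 42.6 to 9503)). L1CAM was at 0.111 and then 0.0873, 0.248 and 0.165 CPM and 0.737 and then 0.479, 2.07 and 0.519 CPM (log2 fold change -2.58, SE 0.74, adjusted p = 0.0426), a call that was lost with replicates 2 to 4 and without control replicate 3. Among 28 integrins and laminins only LAMC3 was called, at 0.445 and then 0.437, 0.206 and 0.330 CPM and 3.26 and then 3.22, 3.91 and 3.07 CPM (log2 fold change -3.24, SE 0.33, adjusted p = 1.54e-06). Of 29 collagens and matrix genes, COL4A6 increased (0.668 and then 0.742, 1.28 and 1.98 CPM and 0.233 and then 0.0870, 0.153 and 0.0865 CPM, log2 fold change 3.00, adjusted p = 4.55e-04), and COL13A1 (0.891 and then 0.524, 0.826 and 0.495 CPM and 11.4 and then 1.78, 7.40 and 1.69 CPM, -3.03, adjusted p = 0.00485) and SPARC (0.668 and then 1.09, 1.03 and 3.47 CPM and 12.2 and then 3.61, 6.55 and 2.90 CPM, -2.0, adjusted p = 0.0426) decreased. SPARC overlapped between the lines.

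In the epithelial list, 2 of 13 increased: KRT8, and LSR, a protein of tricellular junctions, at 49.6 and then 19.7, 18.1 and 13.5 CPM in Δ133p53α2 and 6.05 and then 6.35, 15.4 and 6.79 CPM in control (log2 fold change 1.54, SE 0.44, adjusted p = 0.0434). LSR had its high value in replicate 1, and with replicates 2 to 4 its log2 fold change was 0.85. KRT18, the partner of KRT8, was at 3278 and then 1592, 1238 and 1334 CPM and 932 and then 679, 461 and 640.3 CPM (log2 fold change 1.46, SE 0.40, adjusted p = 0.0333), just under the fold threshold. None of 25 mesenchymal genes was called by edgeR, DESeq2 or limma voom (4 at an unadjusted and 1 at an adjusted p under 0.05, median -0.12), and VIM was at 3404 and then 2503, 2589 and 3757 CPM and 5008 and then 2896, 4313 and 2789 CPM.

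In the immune lists the calls were decreases apart from GBP1. Of 18 tested members of the TNF superfamily, 4 decreased and none increased (median -0.59). The receptor TNFRSF8 (CD30) was at 0 and then 0.0873, 0.124 and 0.124 CPM in Δ133p53α2 and 6.12 and then 7.62, 2.80 and 8.26 CPM in control (log2 fold change -6.05, SE 0.65, adjusted p = 3.46e-06). The ligand CD70 had 1 count in Δ133p53α2 and was at 5.16 and then 3.22, 1.84 and 3.59 CPM in control (ratio 308 (95% interval 54.9 to 12202)). TNFRSF9, the receptor 4-1BB, was at 0.334 and then 0.961, 0.413 and 0.908 CPM and 1.63 and then 4.40, 3.33 and 2.59 CPM (log2 fold change -2.17, SE 0.40, adjusted p = 0.00163). Its ligand TNFSF9 had 1 count in Δ133p53α2 and was at 0.853 and then 0.435, 0.345 and 0.821 CPM in control (ratio 54.7 (95% interval 9.45 to 2195)). The receptor and its ligand were thus lower together. Of 30 cytokines and receptors, LIF (4.56 and then 6.38, 3.59 and 4.75 CPM and 25.6 and then 15.5, 44.9 and 13.4 CPM, log2 fold change -2.37, adjusted p = 4.37e-05) and IL1R1 (1.06 and then 2.31, 2.48 and 2.35 CPM and 3.33 and then 8.57, 11.8 and 7.13 CPM, -1.90, adjusted p = 0.0207) decreased beside IL13RA2. In the NF-κB list ICAM1 and RIPK4 decreased, out of 29. Of 29 interferon genes, GBP1, an interferon-induced GTPase, increased, at 2.12 and then 4.24, 3.67 and 12.7 CPM and 1.43 and then 1.00, 1.38 and 0.519 CPM (log2 fold change 2.38, SE 0.46, adjusted p = 0.00237). HLA-DMA, at 0.334 and then 0.480, 0.495 and 0.165 CPM and 0.775 and then 1.04, 2.45 and 0.821 CPM (adjusted p = 0.0447), was the only call among 28 genes of antigen presentation.

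In the list of SOX, TBX, GATA and FOX factors and that of neural and homeobox factors, the calls were decreases apart from MSX2. Of 25 SOX, TBX, GATA and FOX factors, SOX4, SOX9 and TBX3 decreased. SOX4 had 2 counts in Δ133p53α2 and was at 3.72 and then 4.66, 4.71 and 5.71 CPM in control (ratio 209 (95% interval 57.4 to 1728)), and TBX3, a T-box repressor, had none and was at 0.969 and then 1.91, 1.23 and 2.03 CPM in control (at least 45-fold lower). Of 38 neural and homeobox factors, 7 decreased and 1 increased (median -0.33). NPAS2, a circadian factor, had 2 counts in Δ133p53α2 and was at 2.91 and then 1.78, 5.67 and 1.38 CPM in control (ratio 135 (95% interval 37.0 to 1119)). POU3F3 had none and was at 0.194 and then 0.131, 0.383 and 0.303 CPM in control (at least 7.59-fold lower). ZIC1 was at 0.557 and then 2.45, 1.49 and 3.22 CPM and 5.93 and then 6.66, 4.90 and 5.62 CPM (log2 fold change -1.57, SE 0.38, adjusted p = 0.0141), NKX2-5 at 0.167 and then 0.131, 0.0413 and 0.206 CPM and 1.74 and then 1.91, 0.805 and 1.34 CPM (log2 fold change -3.37, SE 0.61, adjusted p = 0.00137), and LHX6 at 0.557 and then 0.175, 0.206 and 0.289 CPM and 0.775 and then 1.39, 1.11 and 1.08 CPM (log2 fold change -1.84, SE 0.38, adjusted p = 0.00404). EYA1 had 8 counts in Δ133p53α2 and 87 in control (log2 fold change -3.27, SE 0.72, adjusted p = 0.00735), and SFMBT2 is given above. The increase was MSX2, at 0.501 and then 0.524, 0.578 and 0.413 CPM and 0.0388 and then 0.0870, 0.0383 and 0.0865 CPM (log2 fold change 2.92, SE 0.75, adjusted p = 0.0333). It was not called with replicates 2 to 4 (adjusted p = 0.124).

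In the nuclear receptor and steroid list, 4 of 37 increased and none decreased. NR0B1 is described above. PPARG, which drives fat cell formation, was at 1.73 and then 2.27, 1.86 and 1.07 CPM and 0.0775 and then 0.435, 0.651 and 0.648 CPM (log2 fold change 1.92, SE 0.56, adjusted p = 0.0493), the thyroid hormone receptor THRB at 0.946 and then 1.70, 1.32 and 1.90 CPM and 0.194 and then 0.435, 0.307 and 0.389 CPM (log2 fold change 2.14, SE 0.49, adjusted p = 0.0102), and HSD11B2, which inactivates cortisol, at 1.39 and then 1.40, 0.743 and 0.825 CPM and 0.349 and then 0.348, 0.422 and 0.346 CPM (log2 fold change 1.55, SE 0.40, adjusted p = 0.0232). Only NR0B1 and THRB were called with replicates 2 to 4. Of 21 cancer-testis antigens, 3 decreased: MAGEA1 was at 0.278 and then 0.218, 0.165 and 0.0413 CPM in Δ133p53α2 and 0.737 and then 1.96, 0.996 and 2.25 CPM in control (log2 fold change -3.08, SE 0.54, adjusted p = 9.24e-04), SYCE1 had 2 counts in Δ133p53α2 and was at 9.69 and then 5.48, 6.44 and 5.14 CPM in control (ratio 302 (95% interval 83.3 to 2499.8)), and GAGE1, which has near-identical copies and is uncertain for that reason, was at 8.18 and then 11.6, 4.06 and 9.64 CPM in control and had counts in replicate 2 of Δ133p53α2 only. MGMT, which repairs alkylated guanine, was the only call among 50 DNA repair genes. It was at 4.77 and then 2.35, 3.26 and 2.20 CPM in control and had 1 count in Δ133p53α2 (ratio 285 (95% interval 50.8 to 11302)). Of 49 genes of endosomal recycling, the motor gene MYO5B increased, at 15.2 and then 42.7, 22.2 and 32.9 CPM and 8.68 and then 12.2, 6.28 and 11.9 CPM (log2 fold change 1.53, SE 0.30, adjusted p = 0.00232), MYO10 had no count in Δ133p53α2 (at least 68.0-fold lower), and RAB38 had 1 (ratio 84.8 (95% interval 14.8 to 3383)). In the NRF2 target list NR0B1 was the only call of 28, and in the hypoxia list NDRG1 and ADM were the calls of 28.

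Several lists had no call by edgeR, DESeq2 or limma voom. These were the 47 cell cycle genes (median 0.09, 4 at an unadjusted p under 0.05), 25 of cholesterol synthesis (0.30, 2), 26 of glycolysis and lactate (-0.03, 5), 32 of iron handling and ferroptosis (0.12, 6), 33 of the integrated stress response (0.38, 5), 51 nuclear genes of oxidative phosphorylation (0.31, 2) and 78 cytosolic ribosomal proteins (0.51, 8). Below the fold threshold, an adjusted p under 0.05 was found for 3 of the iron handling genes, 1 of the cell cycle genes and 1 of the ribosomal proteins, against 5.28% of all tested genes at any fold. Of the ribosomal proteins 74 lay above 0, and the share of the list rose with replicate 1 as given above. The glycolysis list summed to 40475 CPM in replicate 1 and 18138, 14576 and 18737 CPM in replicates 2 to 4 in Δ133p53α2 and to 30211 CPM in replicate 1 and 21837, 17369.5 and 19917 CPM in replicates 2 to 4 in control. The nuclear genes of oxidative phosphorylation summed to 13535 CPM in replicate 1 and 5476, 4734 and 6047 CPM in replicates 2 to 4, and to 8912 CPM in replicate 1 and 5080.4, 4629.6 and 5467 CPM in replicates 2 to 4 in control. Replicate 1 was the highest library of each line for these 3 lists, and its part in the medians was not tested. The stress response list followed no such order. It summed to 9859 CPM in replicate 1 and 3343, 7476 and 2676 CPM in replicates 2 to 4 in Δ133p53α2 and to 3164 CPM in replicate 1 and 3829.8, 5896 and 4013 CPM in replicates 2 to 4 in control. Replicates 1 and 3 of Δ133p53α2 and replicate 3 of control were the high libraries. Of 27 mitochondrially encoded genes, MT-TM, the gene of the methionine tRNA, decreased and no other was called. Its gene is 68 bases long, so what its counts measure in poly(A) libraries is uncertain.

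**Figure D4:**
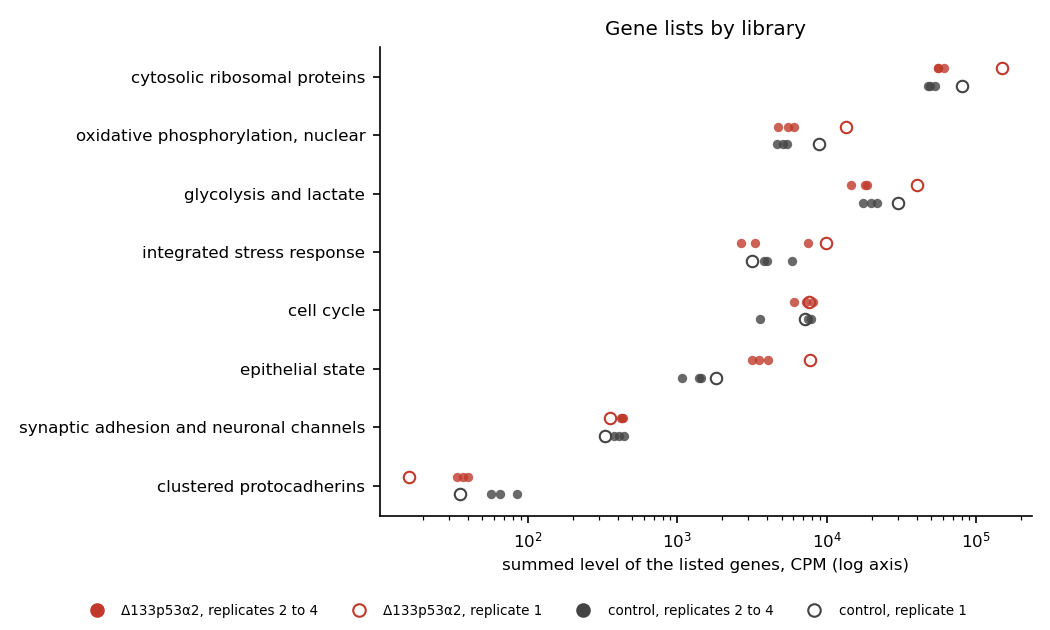
Summed level of the genes of 8 lists in each library, in CPM on a log axis, with Δ133p53α2 in red, control in grey and replicate 1 as open circles. Ribosomal protein, oxidative phosphorylation and glycolysis genes are highest in replicate 1 of each line, and the epithelial list, which KRT8 and KRT18 lead, is higher in all libraries of Δ133p53α2 than in those of control.

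Called genes lay side by side in 8 places, each with at least 3 called genes in 1 direction next to each other among tested genes (26 genes in all). The sequences upstream of 4 of them are shown, since the genes of a run moved together. These are again 250 bases before a RefSeq start site on GRCh38.p14, with CG dinucleotides in capitals. The window of ZNF22 lies at chr10:45000673-45000922 (plus strand, 19 CG) and that of GAS6 at chr13:113864077-113864326 (minus strand, 31 CG). Those of CRACR2A and TNFSF9 lie at chr12:3753110-3753359 (minus strand, 27 CG) and chr19:6530776-6531025 (plus strand, 23 CG).
ZNF22: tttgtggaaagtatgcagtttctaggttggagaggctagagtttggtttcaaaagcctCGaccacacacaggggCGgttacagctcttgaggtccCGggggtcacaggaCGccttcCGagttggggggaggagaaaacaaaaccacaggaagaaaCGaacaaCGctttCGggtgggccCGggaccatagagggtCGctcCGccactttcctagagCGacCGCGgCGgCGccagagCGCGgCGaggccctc
GAS6: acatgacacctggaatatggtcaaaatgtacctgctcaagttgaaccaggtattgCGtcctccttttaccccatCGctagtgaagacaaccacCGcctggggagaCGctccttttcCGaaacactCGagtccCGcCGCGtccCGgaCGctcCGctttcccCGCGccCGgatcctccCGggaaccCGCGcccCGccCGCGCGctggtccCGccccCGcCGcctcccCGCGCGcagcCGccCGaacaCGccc
CRACR2A: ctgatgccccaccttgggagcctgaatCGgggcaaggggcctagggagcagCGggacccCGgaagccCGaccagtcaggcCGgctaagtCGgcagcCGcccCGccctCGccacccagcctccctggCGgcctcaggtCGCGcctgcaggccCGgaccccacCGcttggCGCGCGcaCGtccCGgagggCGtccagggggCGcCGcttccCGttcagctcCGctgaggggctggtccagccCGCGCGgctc
TNFSF9: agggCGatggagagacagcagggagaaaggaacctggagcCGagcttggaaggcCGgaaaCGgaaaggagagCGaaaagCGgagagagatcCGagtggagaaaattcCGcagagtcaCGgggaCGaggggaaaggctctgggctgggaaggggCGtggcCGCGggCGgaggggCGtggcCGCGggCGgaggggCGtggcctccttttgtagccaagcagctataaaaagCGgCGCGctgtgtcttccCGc
The start sites of ZNF22 and ZNF22-AS1 face away from each other at a distance of 120 bases, and those of GAS6 and GAS6-DT at 101 bases. No p53 half-site was found in these 4 windows.

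Increased runs were on chromosomes 10, 12, 13 and 14. On chromosome 10 (chr10:44997698-45076066), ZNF22 was at 9.13 and then 13.6, 13.7 and 13.9 CPM in Δ133p53α2 and 0.388 and then 0.522, 0.575 and 0.346 CPM in control (log2 fold change 4.76, SE 0.28, adjusted p = 4.53e-10), its antisense partner ZNF22-AS1 at 0.668 and then 0.917, 0.743 and 1.65 CPM and 0 and then 0.0870, 0.0383 and 0.216 CPM (log2 fold change 3.51, SE 0.54, adjusted p = 2.53e-04), and CEP164P1 is given above. On chromosome 12 (chr12:3606633-3873448), CRACR2A rose with PARP11, a mono-ADP-ribosyltransferase, which was at 2.06 and then 2.79, 4.83 and 3.55 CPM and 0.116 and then 0.218, 0.268 and 0.432 CPM (log2 fold change 3.66, SE 0.43, adjusted p = 1.07e-05). Between them, ENSG00000280202 had 63 counts in Δ133p53α2 and none in control, at least 23.0-fold higher. On chromosome 13 (chr13:113759226-113866834), GAS6, the ligand of the TAM receptors, was at 131 and then 61.3, 56.4 and 49.2 CPM and 4.38 and then 9.14, 7.55 and 8.82 CPM (log2 fold change 3.32, SE 0.34, adjusted p = 1.86e-06), GAS6-AS1 at 21.3 and then 16.9, 18.1 and 12.8 CPM and 1.09 and then 2.79, 2.76 and 2.55 CPM (log2 fold change 2.91, SE 0.27, adjusted p = 4.49e-07), GAS6-DT at 1.89 and then 3.89, 2.39 and 3.38 CPM and 0.0388 and then 0.609, 0.153 and 0.562 CPM (log2 fold change 3.09, SE 0.49, adjusted p = 3.04e-04) and TMEM255B at 1.39 and then 0.699, 0.702 and 0.660 CPM and 0.233 and then 0.0435, 0.268 and 0.173 CPM (log2 fold change 2.20, SE 0.58, adjusted p = 0.0283). GAS6 was highest in replicate 1 of Δ133p53α2, and with replicates 2 to 4 its log2 fold change was 2.71. On chromosome 14 (chr14:103928456-104180894), TDRD9, a helicase of the piRNA pathway, was at 12.1 and then 29.9, 32.8 and 27.9 CPM and 0.969 and then 2.18, 3.41 and 2.81 CPM (log2 fold change 3.45, SE 0.44, adjusted p = 2.81e-05), KIF26A at 5.57 and then 4.98, 4.46 and 3.92 CPM and 0.892 and then 1.00, 1.46 and 1.47 CPM (log2 fold change 1.97, SE 0.27, adjusted p = 7.63e-05), and ASPG had 27 counts against 3. ASPG, the middle gene of this run, had an adjusted p of 0.0378. Its call was lost with replicates 2 to 4 (adjusted p = 0.118), and the run on chromosome 14 rests on it. The libraries keep the strand, but the strand setting of the counting is not stated, and without it a gene and its antisense partner could share reads.

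Decreased runs were on chromosomes 8, 16 and 19. On chromosome 16 (chr16:10326434-10580632), EMP2, a membrane protein that regulates integrins, was at 2.78 and then 2.36, 1.78 and 2.02 CPM and 15.4 and then 14.1, 8.05 and 14.7 CPM (log2 fold change -2.55, SE 0.40, adjusted p = 2.95e-04), ATF7IP2 at 0.779 and then 1.14, 1.03 and 0.867 CPM and 6.16 and then 5.74, 4.67 and 6.74 CPM (log2 fold change -2.6, SE 0.37, adjusted p = 8.54e-05), and ENSG00000256013 at 0.167 and then 0.349, 0.330 and 0.206 CPM and 2.09 and then 1.57, 1.38 and 2.12 CPM. The first run on chromosome 19 (chr19:6494319-6604103) held the tubulin gene TUBB4A, at 0.445 and then 0.175, 0.124 and 0.330 CPM and 4.30 and then 3.18, 3.60 and 2.29 CPM (log2 fold change -3.64, SE 0.50, adjusted p = 7.25e-05), ENSG00000268191, with no count in Δ133p53α2 and 73 in control, and the ligands TNFSF9 and CD70. The second (chr19:38975161-39032785) held FBXO27, at 11.8 and then 4.37, 8.67 and 4.5 CPM and 36.0 and then 33.0, 81.4 and 24.6 CPM (log2 fold change -2.58, SE 0.38, adjusted p = 1.39e-04), with ENSG00000287271 (1.73 and then 0.699, 1.07 and 0.825 CPM and 4.19 and then 3.35, 9.08 and 2.77 CPM) and ENSG00000267992 (1.56 and then 0.568, 1.16 and 0.536 CPM and 3.14 and then 4.18, 10.8 and 2.90 CPM). Control replicate 3 was the highest library for these 3 genes. On chromosome 8 (chr8:144012280-144063965), SMPD5 had 1 count in Δ133p53α2 and was at 7.29 and then 2.52, 4.06 and 3.24 CPM in control (ratio 389 (95% interval 69.5 to 15406)), SPATC1 had none (at least 23.7-fold lower), and OPLAH, the 5-oxoprolinase, was at 0.946 and then 0.262, 0.867 and 0.206 CPM and 4.85 and then 2.22, 8.51 and 2.08 CPM (log2 fold change -2.96, SE 0.66, adjusted p = 0.00792). By chromosome, the share of tested genes that decreased was highest on X (22 of 582, 3.78%), 19 (44 of 1324, 3.32%) and 8 (20 of 666, 3.00%) among those with over 100 tested genes. The share that increased was highest on 13 (7 of 313, 2.24%).

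Few transcripts set Δ133p53α2 apart from the other 2 α clones. Against the mean of Δ133p53α1 and Δ133p53α8 (on the log2 scale, in the same fit), 23 transcripts were higher (0.126%) and 17 lower (0.0929%). Of these, 12 and 12 were also called in that direction against control. The libraries of Δ133p53α1 and Δ133p53α8 were mixed in their length trend: it was negative in replicates 2 to 4 of Δ133p53α1 and replicate 2 of Δ133p53α8, and positive in their others. With the direction of the trend as a term, 33 transcripts were higher and 37 lower, and when only the groups compared were fitted these were 11 and 9. With the replicate number as a block in that last fit, 0 were higher and 1 lower. Same-numbered libraries of Δ133p53α2 and these clones correlated at -0.87 to 0.55 in their deviations. Leaving out 1 library also moved the count of higher transcripts, to 8 without replicate 3 of Δ133p53α2 and to 14 without its replicate 4. It was 14 as well without replicate 2 of Δ133p53α1 or without replicate 1, 3 or 4 of Δ133p53α8. The count of lower transcripts moved to 10 without replicate 3 of Δ133p53α2.

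Of the transcripts higher in Δ133p53α2 than in the other α clones and in control, 6 had the smallest p. The muscle membrane repair gene DYSF was at 10.9 CPM in replicate 1 and 4.67, 13.2 and 5.41 CPM in replicates 2 to 4 in Δ133p53α2, at 0.155 and then 0.522, 2.26 and 0.648 CPM in control, and ranged from 0.659 to 0.930 CPM in Δ133p53α1 and 1.21 to 3.66 CPM in Δ133p53α8 (log2 difference 2.53, SE 0.43, adjusted p = 0.00730). TM4SF19, a tetraspanin-like gene, was at 1.11 and then 0.480, 1.24 and 1.57 CPM in Δ133p53α2, and ranged from 0.169 to 0.479 CPM in Δ133p53α1 and 0 to 0.0466 CPM in Δ133p53α8 (log2 difference 3.92, SE 0.44, adjusted p = 9.18e-05). In Δ133p53β5 and Δ133p53β10, however, it averaged 0.961 and 1.24 CPM, close to Δ133p53α2. MSX2 had no count in either α clone and averaged 0.540 and 0.363 CPM in the β clones. Its call against control was lost with replicates 2 to 4, as given above. SCG3, a secretogranin, was at 0.390 and then 0.524, 0.661 and 0.578 CPM in Δ133p53α2 and at most 0.0841 CPM in any library of another clone (log2 difference 5.05, SE 0.58, adjusted p = 2.55e-04). The long non-coding RNA LINP1 was at 1.5 and then 1.05, 0.661 and 1.69 CPM in Δ133p53α2 and up to 0.355 and 0.336 CPM in Δ133p53α1 and Δ133p53α8 (log2 difference 2.29, SE 0.36, adjusted p = 0.00313). For HSPB8, a small heat shock protein, the mean of the other clones hides a split. It averaged 4.35 ± 1.35 CPM in Δ133p53α2, 0.157 ± 0.145 CPM in Δ133p53α1 and 5.53 ± 0.227 CPM in Δ133p53α8, so the difference was with Δ133p53α1 alone.

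Among the 6 named as lower, ICAM1 was the clearest. It averaged 0.527 ± 0.177 CPM in Δ133p53α2, 5.42 ± 1.13 CPM in control, 6.48 ± 0.898 CPM in Δ133p53α1, 7.70 ± 0.703 CPM in Δ133p53α8, 7.14 ± 0.595 CPM in Δ133p53β5 and 15.9 ± 3.59 CPM in Δ133p53β10 (log2 difference -3.74, SE 0.24, adjusted p = 1.04e-08). No library of any other line overlapped with Δ133p53α2. ICAM4-AS1, a transcript of the same gene cluster, followed it, at 0.111 and then 0.218, 0.0826 and 0.165 CPM in Δ133p53α2, 2.13 and then 1.09, 1.80 and 1.56 CPM in control, and 1.10 to 4.39 CPM and 1.61 to 3.22 CPM in Δ133p53α1 and Δ133p53α8 (log2 difference -4.21, SE 0.48, adjusted p = 9.18e-05). Its annotated position overlaps that of ICAM1, which ends at chr19:10286615, whereas ICAM4-AS1 begins at chr19:10285801. They could share reads if strand was not used in counting, and that setting is not stated. PTN and TBX3, without a count in Δ133p53α2, averaged 0.321 and 1.41 CPM, and 0.548 and 1.07 CPM, in Δ133p53α1 and Δ133p53α8. The long non-coding RNA LINC01419 had 4 counts in Δ133p53α2 and was at 23.3 and then 13.1, 17.3 and 13.4 CPM in control. It averaged 18.8 CPM in Δ133p53α1 but 0.138 CPM in Δ133p53α8, whose libraries overlapped with Δ133p53α2. MT-TM, whose counts are uncertain as given above, was at 0.0557 and then 0.655, 0.372 and 0.371 CPM in Δ133p53α2 and averaged 1.19 CPM in Δ133p53α1 and 37.6 CPM in Δ133p53α8 (log2 difference -4.15, SE 0.45, adjusted p = 7.31e-05), so that the high value of Δ133p53α8 carried most of the difference.

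**Figure D5:**
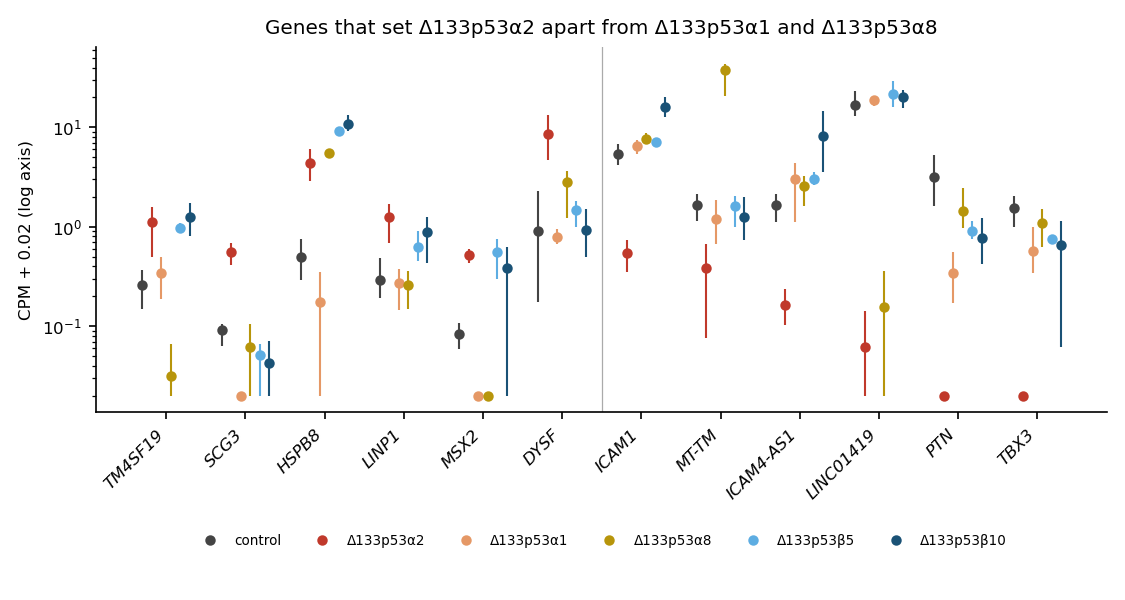
The 6 transcripts named as higher (left of the line) and the 6 named as lower (right) in Δ133p53α2 than in Δ133p53α1 and Δ133p53α8, as CPM + 0.02 on a log axis. Points are means and bars the range over the libraries of a line (4 each, 3 of Δ133p53β5). ICAM1 and ICAM4-AS1 are lower in Δ133p53α2 than in every other line, whereas HSPB8 and LINC01419 differ between Δ133p53α1 and Δ133p53α8.

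Among the genes whose call was lost without replicate 1 of both lines, the 6 with the smallest p were mostly near the fold threshold. The non-coding RNA LINC02575 was at 6.68 and then 4.93, 6.19 and 4.95 CPM in Δ133p53α2 and 1.67 and then 2.35, 1.80 and 2.03 CPM in control, and its log2 fold change went from 1.53 to 1.38. EID3, a subunit of the SMC5/6 complex, went from -1.67 to -1.49, and the synaptic gene ELFN1 from 1.54 to 1.33. NNT-AS1 went from -1.54 to -1.28, HOXA10 from -1.62 to -1.37, and GPRC5A is given above. Libraries of the lines did not overlap for LINC02575 (4.93 to 6.68 CPM against 1.67 to 2.35 CPM) or for EID3 (0.668 to 0.830 against 1.92 to 3.06 CPM).

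Single libraries were also left out in turn. Of the 128 named genes, 93 kept their call without any 1 of the 8 libraries, and 35 lost it at least once. Without replicate 3 of control 23 calls were lost, without replicate 1 of Δ133p53α2 21, without its replicates 2, 3 and 4 17, 16 and 11, and without replicates 1, 2 and 4 of control 14, 16 and 14. MSX2 (45 counts against 6) lost its call whichever of them was left out. HLA-DMA, PPARG, L1CAM, LSR, NTN1, ASPG, GRIN2B, HOXD11, HSD11B2, SMAD6, SPARC, STC1, UPP1 and WNT7B lost it in 5 to 7 of the 8 cases. It was lost in 2 to 4 cases for ELFN1, MYO5B, SLIT3, VGF, IL1R1, PCDHB14, SEMA7A, SYP, TMEM255B, ZIC1, ID4, LINC02575 and NNT-AS1. ADM lost it without replicate 3 of Δ133p53α2 and HOXA10 without replicate 1 of control. CLIP3, EFNB3, ERBB3, LTBP2 and PCDHB11 lost it without replicate 3 of control, with log2 fold changes of -1.36, -1.497, -1.14, -1.08 and -1.46.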

How the data were processed

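Poly(A) RNA of 24 H1299 libraries was sequenced by the authors with a strand-specific (dUTP) protocol. Reads were aligned to GRCh38 (hg38) with HISAT2 and counted per gene with featureCounts. The authors deposited raw counts per gene. The strand setting and multi-mapping rule are not given in the sources used here. One gene row without a name held 0 counts and was left out, and 1 column of per-sample values that matched no sample title was not used, which left 23 libraries.

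edgeR 4.0.16 (R 4.3.3) was used with TMM scaling, the filterByExpr filter by group and 1 quasi-likelihood fit of 6 groups (17 residual degrees of freedom). Genes were called at a Benjamini-Hochberg adjusted p under 0.05 over all 18295 genes and an absolute log2 fold change of 1.5 or more. SE is the log2 fold change divided by the square root of its F. CPM were taken with edgeR from the TMM-scaled library sizes. The comparisons of the clones with control share the control libraries. Where a group had no count, the fold was bounded at 3 counts over the group. Ratios with 1 to 3 counts have exact 95% intervals. Both cover counting error only, since reads without molecular identifiers are not independent molecules. The libraries of a line differed by more than counting noise (lowest chi-square per degree of freedom between them 15.8).

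Members and gene lists were chosen with earlier results of these data known. Named genes were the 12 largest increases and decreases without overlap and at 2 CPM or more, the 5 largest gains and losses in CPM, called list members, runs of 3 or more called neighbours, the 6 with the smallest p in each direction against the other α clones, and the 6 with the smallest p whose call was lost without replicate 1. KRT18, CDKN1A, MDM2, TP73 and VIM are uncalled list members given as values, and marker genes are given as counts. Values of a few genes that these rules name are not reported here. Gene positions are from GENCODE (98.6% of tested genes matched) and start sites from RefSeq, the first listed for each gene. In simulated counts for the comparison with control (17966 genes), 97.5% of 200 genes changed by a log2 of 3 were recovered, with 3 false calls. The changed genes were at a mean of 1 CPM or more. Counts were drawn independently around 1 mean per gene, without the length trend of replicate 1 or differences between the clones. The figures thus do not cover weaker transcripts or these features of the real libraries. Alternatives used DESeq2 1.42.0 and limma 3.58.1 (voom), other scaling, filters, thresholds and samples.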

Additional observations from a re-analysis of the deposited data

Results flagged for a closer look

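Libraries were compared within their line for a value far from the other 3, by Dixon's test at the 95% level, over 260 groups of 4 values (the totals, the length trend and the levels of the named genes). Chance flags about 1 group in 20, and 44 groups were picked out. Control replicate 1 had a total of 25381731 counts. The length trend picked out replicate 1 of Δ133p53α2, with a rank correlation of -0.242, and replicate 1 of control, with -0.126.

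In CPM, the library that stood apart was most often control replicate 3: EFNB3 at 12.2, ENSG00000267992 at 10.8, ERRFI1 at 651, HLA-DMA at 2.45, HSD11B2 at 0.422, L1CAM at 2.07, LINC02780 at 0.115, LSR at 15.4, LTBP2 at 110.1, NLGN3 at 4.14, NOTCH3 at 26.7, PCDHB14 at 4.94, RSPO4 at 0.345, STC1 at 223 and UPP1 at 49.3. In replicate 1 of Δ133p53α2, these were GAS6 at 131, ID4 at 0, IL1R1 at 1.06, LSR at 49.6, MGMT at 0.0557, NR0B1 at 10.1, RAB38 at 0.0557, SMPD5 at 0.0557, SYP at 2.62, TMEM255B at 1.39 and ZNF22 at 9.13. Replicate 4 of Δ133p53α2 was picked out for ALCAM at 0.0413, CD70 at 0.0413, CRACR2A at 2.89, ERC2 at 3.55, PTPRS at 0.0413, SPARC at 3.47, TNFSF9 at 0.0413 and WNT7B at 4.54. In replicate 2 these were GAGE1 at 0.306, NPAS2 at 0.0873 and SOX9 at 0.0437, and in replicate 3 ANXA3 at 44.2, IL13RA2 at 0.0413 and SFMBT2 at 0.0413. GAS6-AS1 stood apart in control replicate 1, at 1.09 CPM. Many of the low values are 1 read against none.

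The test of Δ133p53α2 against the mean of Δ133p53α1 and Δ133p53α8 called 23 transcripts higher and 17 lower. Only the 12 named above are listed here. The log2 differences were TM4SF19 3.92, SCG3 5.05, HSPB8 2.22, LINP1 2.29, MSX2 6.51, DYSF 2.53, ICAM1 -3.74, MT-TM -4.15, ICAM4-AS1 -4.21, LINC01419 -5.05, PTN -6.93 and TBX3 -7.12. MSX2, PTN and TBX3 had no count on one side, and SCG3 had none in Δ133p53α1. The fitted values of these genes depend on the prior count.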

How the results depend on the processing

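Against control, the 179 higher and 335 lower transcripts moved to 117 and 177 with a filter at a mean of 1 CPM, to 102 and 193 when only the 8 libraries were fitted, and to 370 and 575 with a threshold of 1.5-fold. The other planned settings stayed within 1.5 times: RLE size factors (186 and 328), no filter (196 and 367), DESeq2 (226 and 365) and limma voom (171 and 341). Leaving out 1 library at a time gave 142 to 207 higher and 252 to 319 lower transcripts. Against the other α clones, the 23 higher and 17 lower moved to 12 and 11 at a mean of 1 CPM, 35 and 36 with DESeq2, and 11 and 9 when only the groups compared were fitted, and the lower to 37 with the length trend as a term. Leaving out 1 library gave 8 to 24 higher and 10 to 20 lower. Leaving out libraries of Δ133p53α1 or Δ133p53α8 was added after seeing the data. The cause of these moves was not tested.

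The shared replicate numbers paired the libraries of Δ133p53α2 and control only in part. Same-numbered libraries correlated at 0.64, 0.46, 0.43 and 0.03 in their deviations. Replicates 1 and 3 of Δ133p53α2 correlated best with the control library of the same number. Replicate 2 correlated best with control replicate 4 (0.65), and replicate 4 with control replicate 3 (0.12). With the other α clones the correlations ran from -0.87 to 0.55. With the replicate block and only the groups compared, 170 transcripts were higher and 322 lower than control, and 0 higher and 1 lower than the other α clones (edgeR, with 42 and 53 past the fold threshold at an unadjusted p under 0.05).

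No value of the 128 named genes reversed, and 85 kept their side of the threshold wherever they were tested. At this depth, transcripts under about 1 CPM rest on few reads.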

Other observations

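Of 31 tested HOX genes, 8 had an adjusted p under 0.05 at any fold, as had 5.28% of all tested genes, and 2 of these passed the fold threshold. Neither was called with replicates 2 to 4. Over the list, 17 lay above 0 and 14 below. Among those lower in Δ133p53α2 were HOXA3 (log2 fold change -0.95), HOXA4 (-1.17) and HOXA10 (-1.62), and higher were HOXB2 (0.99), HOXD8 (0.97), HOXD9 (1.42) and HOXD11 (2.56). HOXA10 was at 1.06 and then 1.97, 1.45 and 1.32 CPM in Δ133p53α2 and 5.70 and then 4.44, 3.83 and 3.93 CPM in control, and HOXD9 at 38.0 and then 13.8, 16.5 and 10.9 CPM and 4.92 and then 7.35, 10.1 and 7.05 CPM. All 20 tested clustered protocadherins lay below 0 (median -0.86), and PCDHB11 (log2 fold change -1.84, adjusted p = 0.0119) and PCDHB14 (-1.70, adjusted p = 0.0168) were called. These neighbours share near-identical sequence, and their summed level was 16.3 CPM in replicate 1 and 36.9, 40.0 and 33.6 CPM in replicates 2 to 4 in Δ133p53α2 and 35.3 CPM in replicate 1 and 65.4, 84.7 and 57.2 CPM in replicates 2 to 4 in control. HOX genes and protocadherins were singled out after their values were seen.

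GDF15 and DDIT3 varied widely within the lines. GDF15, a secreted stress factor, was at 34.7 and then 0.218, 16.2 and 0.867 CPM in Δ133p53α2 and 1.86 and then 0.827, 65.9 and 0.432 CPM in control (log2 fold change -0.41, SE 1.25, adjusted p = 0.935), and DDIT3, a transcription factor of the unfolded protein response, at 248 and then 17.6, 98.8 and 23.2 CPM and 28.9 and then 15.1, 63.2 and 14.4 CPM (log2 fold change 1.67, SE 0.67, adjusted p = 0.192). Both are given after their values were seen, as neither was called.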
